A study of Mus musculus with 17 samples.

Results

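The immediate early genes followed here are 10 genes, *Fos*, *Fosb*, *Jun*, *Junb*, *Egr1*, *Egr2*, *Nr4a1*, *Nr4a2*, *Npas4* and *Ier2*, chosen by name as members of this class. Each was found once among the 78239 gene identifiers of the knock-in table and once among the 73212 of the knockout table. The RNA was total RNA of pancreatic islets isolated from 17 male mice in 6 groups. The knock-in table held 3 mice each of wildtype and homozygous *Pax4* R192H genotype (Pax4 HH in the labels), a knock-in of the mouse substitution that corresponds to the human R192H variant, on a standard chow diet (SCD) at 12 weeks of age, and 3 mice of each genotype at 16 weeks of age after 4 weeks of a high-fat diet (HFD). Diet and age therefore changed together in that table. The knockout table held 2 control and 3 *Pax4* βiKO mice (Pax4-BiKO in the labels), all 20 weeks old after 8 weeks of HFD. All were given tamoxifen at 7 to 9 weeks of age, before HFD began at 12 weeks. All had both *Pax4* alleles floxed, and the βiKO mice alone carried *Pdx1-CreERT2*. The effect of that transgene and of the *Pax4* deletion cannot be told apart in this table, and the *Pdx1* promoter that drives it is also active in δ cells, so it is not strictly confined to β cells.

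Immediate early genes are transcribed within minutes of a stimulus without the need for new protein synthesis, because the factors that switch them on, such as SRF with its ternary complex partners and CREB, are already present in the cell. In β cells glucose, calcium entry and cyclic AMP are among the stimuli known to do so. Most of the products are transcription factors: FOS and JUN proteins pair to form AP-1, EGR proteins bind through zinc fingers, NR4A proteins are orphan nuclear receptors, and NPAS4 is a bHLH-PAS factor that responds to calcium. Stress of tissue handling is also a known stimulus.

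The core of the cyclic AMP response element (CRE), the site that CREB binds, was the motif that most members shared, and it is shown here for that reason. RefSeq promoter windows of GRCm38.p6, from 250 bases before to 50 bases after a start, were used for 8 members, which had 12 windows in all. *Egr1* and *Ier2* were not among them. The letters TGACG, searched on both strands, were found in 9 of the 12 windows, belonging to 7 members, and in 20.8% of all 32851 windows. The windows of *Egr2* among these 9 overlap and hold the same cores, at 67537758 and 67537814 of chromosome 10. The count of windows is thus not one of separate sites. *Jun* was the member without a match. The following stretches are written 5′ to 3′ on the strand of the gene, with the core in capitals, as TGACG or as CGTCA where it lies on the other strand.
Fos, chr12:85473751-85473775, plus strand: ggcgtagagtTGACGacagagcgcc
Fos, chr12:85473814-85473838, plus strand: ttccgcccagTGACGtaggaagtcc
Fosb, chr7:19310091-19310115, minus strand: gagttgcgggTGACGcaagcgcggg
Junb, chr8:84978840-84978864, minus strand: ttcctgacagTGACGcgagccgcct
Nr4a1, chr15:101266767-101266791, plus strand: gggccgtgtgCGTCAgtggcgcccc
Nr4a2, chr2:57124100-57124157, minus strand: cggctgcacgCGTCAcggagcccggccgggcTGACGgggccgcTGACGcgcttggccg
Npas4, chr19:4990129-4990157, minus strand: cgttcgaCGTCAcgggaTGACGtcggaag
Further cores of *Nr4a1*, *Nr4a2* and *Egr2* are not shown. All 29 bases shown for *Npas4* lie in an annotated exon of GENCODE M21 and none of the bases shown for the other members do. The stretch of *Nr4a1* lies inside the span of the gene (chromosome 15, 101254269 to 101274795), which has transcripts that start further upstream.

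Other motifs were rarer among these windows. The full CRE, TGACGTCA, which contains the core, was in no member window and in 1.79% of all windows. An EGR site, GCGNGGGCG, was found for *Fosb*, *Nr4a1* and *Nr4a2* and in 5.55% of all windows, without overlap with the CRE cores. Within these windows the CArG box, which SRF binds, was found for *Egr2* alone among the members searched, and in 1.63% of all windows. Sequence further upstream was not searched, and *Egr1* and *Ier2* had no window. The absence of a match therefore does not show that a member lacks an SRF site. TATAAA was found for *Fos*, *Junb* and *Nr4a2* and in 13.6% of all windows, whereas the AP-1 site TGANTCA (7.81% of all windows) and the NR4A site AAAGGTCA (1.51%) were found for no member. These matches describe the letters of the windows alone, and the base composition of the windows was not compared.

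Total counts per mouse were between 24268157 and 42679645 in the knock-in table and between 28618835 and 31887537 in the knockout table. No library had a count of *Pax4*, which is listed at 0 throughout, so the targeted gene could not check the genotype labels. The 2 largest genes took between 36.2% and 53.3% of a knock-in library and between 8.68% and 11.1% of a knockout library. *Ins1* and *Ins2* were among the abundant genes of every group, at a mean of at least 16295 CPM, that is, counts scaled by library size, each. Their means in the knock-in groups were at most 43164 CPM each, too low to make up the share of the 2 largest genes there. The HFD *Pax4* R192H libraries stood apart in the summed level of 20 acinar cell markers, between 39118 and 104225 CPM against 14087 to 28435 CPM in the other knock-in libraries. Values below are CPM after TMM scaling within each table, so levels are not compared across the tables.

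Among the AP-1 genes, *Fos* was the most abundant. It measured 366, 433 and 429 CPM in SCD wildtype mice, 328, 312 and 211 CPM in SCD *Pax4* R192H mice, 362, 273 and 162 CPM in HFD wildtype mice and 257, 186 and 304 CPM in HFD *Pax4* R192H mice. All 3 SCD wildtype mice were above every other mouse of the table. *Fosb*, whose protein takes the place of FOS in AP-1, measured 189, 156 and 148 CPM, 151, 141 and 110 CPM, 162, 83.1 and 52.1 CPM, and 75.6, 51.6 and 69.5 CPM in the same order of groups and mice. The 3 HFD *Pax4* R192H mice were below all 6 SCD mice, while the HFD wildtype mice ran from the level of one diet to that of the other.

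*Jun*, which pairs with FOS proteins or with itself, measured 172, 161 and 178 CPM in SCD wildtype mice, 174, 145 and 101 CPM in SCD *Pax4* R192H mice, 195, 111 and 87.2 CPM in HFD wildtype mice and 128, 109 and 110 CPM in HFD *Pax4* R192H mice. Each of the groups overlapped with the next in the order of the means. *Junb*, a weaker activator than JUN at most AP-1 sites, behaved differently. It measured 105, 114 and 121 CPM in SCD wildtype mice and 73.1, 64.0 and 57.4 CPM in SCD *Pax4* R192H mice, and 137, 61.5 and 67.8 CPM in HFD wildtype mice and 50.3, 45.2 and 64.3 CPM in HFD *Pax4* R192H mice. On SCD the genotypes did not overlap, and on HFD they overlapped because the second wildtype mouse was below the *Pax4* R192H mouse numbered 3.

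*Egr1*, a zinc finger factor that glucose induces in β cells, was the most variable of the abundant members. It measured 17.9, 63.5 and 30.0 CPM in SCD wildtype mice, 27.9, 22.5 and 36.9 CPM in SCD *Pax4* R192H mice, 53.8, 14.0 and 12.4 CPM in HFD wildtype mice and 20.0, 8.06 and 13.8 CPM in HFD *Pax4* R192H mice. The spread within the wildtype groups was larger than the distance between the groups. *Egr2* was barely detected, with 0 to 15 reads per mouse and at most 0.362 CPM, and it was not tested in the knock-in table because it did not pass the filter on low counts. The HFD wildtype mouse without a read had a library in which 3 reads would be 0.102 CPM on the same scale.

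Of the NR4A receptors, *Nr4a1* measured 11.4, 11.9 and 19.6 CPM in SCD wildtype mice, 7.75, 10.2 and 9.05 CPM in SCD *Pax4* R192H mice, 15.9, 6.11 and 5.26 CPM in HFD wildtype mice and 5.87, 3.40 and 5.21 CPM in HFD *Pax4* R192H mice. The SCD wildtype mice were above the SCD *Pax4* R192H mice, and these were above the HFD *Pax4* R192H mice. *Nr4a2* ran the other way with diet. It measured 1.65, 2.90 and 3.81 CPM, 1.78, 2.21 and 2.75 CPM, 3.33, 3.82 and 2.16 CPM, and 4.83, 3.48 and 3.89 CPM in the same order, and the HFD *Pax4* R192H mice were above all 3 SCD *Pax4* R192H mice.

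*Npas4* measured 3.34, 4.26 and 1.74 CPM in SCD wildtype mice, 3.71, 2.74 and 5.84 CPM in SCD *Pax4* R192H mice, 7.06, 0.887 and 2.16 CPM in HFD wildtype mice and 0.751, 1.09 and 1.45 CPM in HFD *Pax4* R192H mice. The highest and the second lowest of the 12 values were thus both from HFD wildtype mice, while the HFD *Pax4* R192H mice were below all 6 SCD mice. *Ier2*, which encodes a nuclear protein, measured 20.9, 14.6 and 16.7 CPM, 14.9, 13.5 and 10.5 CPM, 18.2, 11.5 and 7.66 CPM, and 12.2, 9.23 and 12.4 CPM in the 4 groups. Neighbouring groups overlapped for this gene.

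**Figure D1:**
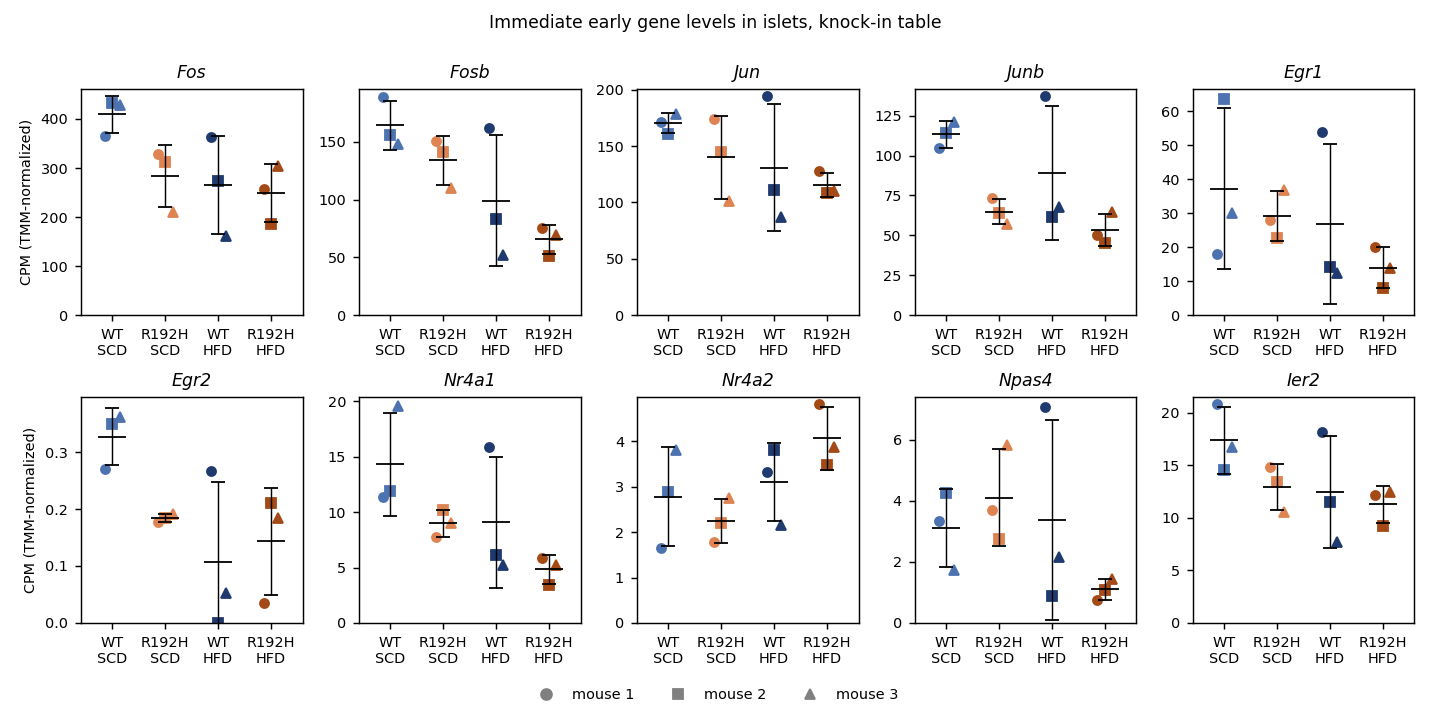
CPM (TMM-normalized, linear axes from 0) of the 10 immediate early genes in the 12 knock-in mice, 1 panel per gene, with points for mice, a horizontal line for the group mean and bars for ± 1 SD (n = 3 per group). The first HFD wildtype mouse (dark blue circle) was the highest of its group for every gene but *Nr4a2*, and *Junb* was lower in all SCD *Pax4* R192H mice (57.4 to 73.1 CPM) than in all SCD wildtype mice (105 to 121 CPM).

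Scaled by exon length, *Fos* had the highest mean level in SCD wildtype islets, at 174 CPM per kb. *Jun* (53.4 CPM per kb) and *Junb* (49.3 CPM per kb) followed, then *Fosb* (26.3 CPM per kb) and *Ier2* (11.4 CPM per kb). *Egr1* was at 8.28 and *Nr4a1* at 4.07 CPM per kb. The remaining members were below 1 CPM per kb, with *Npas4* at 0.753, *Nr4a2* at 0.687 and *Egr2* at 0.0962 CPM per kb. Mean levels were highest in SCD wildtype and lowest in HFD *Pax4* R192H islets for *Fos*, *Fosb*, *Jun*, *Junb*, *Egr1*, *Nr4a1* and *Ier2*. *Nr4a2* was highest in HFD *Pax4* R192H islets and *Npas4* in SCD *Pax4* R192H islets. Neighbours in this order overlapped in most cases. The exceptions were *Fos* and *Egr2* between the highest and the next group, and *Nr4a1* and *Npas4* between the lowest and the group above it.

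On SCD, *Pax4* R192H islets had lower mean levels than wildtype islets for 8 of the 9 tested members, *Npas4* being the exception, but no member passed the test. *Junb* came nearest: its mean was 64.8 ± 7.88 CPM in *Pax4* R192H and 113 ± 8.27 CPM in wildtype islets (SD, n = 3 each), a log2 fold change of -0.81 ± 0.25 (SE) with an unadjusted edgeR p of 0.00634 and an adjusted p of 1. A gene was called at a Benjamini-Hochberg adjusted p under 0.05 and an absolute log2 fold change above 0.5 in edgeR's quasi-likelihood test, which 0% of the 19137 tested genes reached in this comparison. An unadjusted p under 0.05 was reached by 1 of 9 members, *Junb*, and by 3.29% of all genes, and DESeq2 called no member.

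*Fos* (-0.53 ± 0.26), *Nr4a1* (-0.67 ± 0.36) and *Ier2* (-0.42 ± 0.26, log2 fold change ± SE) were also lower in the mean, and *Npas4* had 0.39 ± 0.57. *Fos*, *Nr4a1* and *Junb* were the 3 of 9 tested members whose *Pax4* R192H mice were all below the wildtype mice, a pattern found in 4.22% of all tested genes, while 3.62% had all of them above. A log2 fold change below 0 was found for 50.7% of all genes. The members' median was -0.35 and that of all genes -0.004. In bulk RNA, fewer cells of a type and less RNA per cell cannot be told apart. The 12 macrophage markers moved with this comparison: all had log2 fold changes below 0, and their sum was 71.9 to 75.1 CPM in *Pax4* R192H and 103 to 149 CPM in wildtype libraries. The 5 tested T and B cell markers were also all below 0, as were 11 of 12 stromal markers, with a stromal median of -0.55. All 10 listed T and B cell markers, tested or not, summed to 0.579 to 1.09 CPM in *Pax4* R192H and 3.70 to 19.4 CPM in wildtype libraries. No marker of these 3 lists was called, and their part in the result was not tested.

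After 4 weeks of HFD, 8 of the 9 tested members again had lower means in *Pax4* R192H than in wildtype islets (51.4% of all genes), and again none was called, beside 2.28% of all tested genes, or 437 genes. That number was between 93 (without HFD wildtype mouse 3) and 498 when 1 mouse was left out, and 0 with the acinar covariate described below. An unadjusted p under 0.05 was reached by 3 of 9 members and by 15.9% of all genes. These 3 were *Junb* (-0.74 ± 0.25, adjusted p = 0.148), *Npas4* (-1.62 ± 0.61, adjusted p = 0.199) and *Nr4a1* (-0.91 ± 0.37, adjusted p = 0.240). DESeq2 called 1 member, *Junb*, at -0.74 with an adjusted p of 0.0444. *Fos* differed little between the means, at 249 ± 59.7 CPM in *Pax4* R192H and 266 ± 100 CPM in wildtype islets (SD, n = 3 each), with a 95% interval of the log2 fold change from -0.66 to 0.47. No member separated all mice of the genotypes, against 9.89% of all genes in the lower and 13% in the higher direction.

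These HFD differences rested on the first HFD wildtype mouse. Without it, *Junb* had -0.28 ± 0.16, *Nr4a1* -0.23 ± 0.27, *Npas4* -0.48 ± 0.49 and *Fosb* -0.04 ± 0.22 (log2 fold change ± SE), and the signs of *Fos* (0.20), *Jun* (0.22), *Egr1* (0.08) and *Ier2* (0.24) turned. Acinar content differed as well. The 20 acinar markers all had log2 fold changes above 0 and 5 were called, their sum being 39118 to 104225 CPM in HFD *Pax4* R192H and 17610 to 26783 CPM in HFD wildtype libraries. None of *Cpa1*, *Prss2* and *Ptf1a*, which define acinar cells, was at 0 in either group. Of the 10 beta cell markers 2 were called lower and none higher, although their sum was higher, at 99293 to 110484 CPM in *Pax4* R192H and 65469 to 93847 CPM in wildtype libraries, and 1 of 6 alpha cell markers was called higher. Mitochondrial genes took 0.337% to 0.463% of counts in *Pax4* R192H and 0.497% to 0.683% in wildtype libraries, and the part of these in the result was not tested. With the acinar level as a covariate *Junb* had -0.55 (adjusted p = 0.809) and *Npas4* -0.47 (adjusted p = 0.934), whereas *Nr4a1* was further from 0, at -1.44 (adjusted p = 0.671), and *Nr4a2* turned from 0.39 to -0.33. The covariate was the mean log2 CPM of the acinar markers. It was 9.54 to 10.9 in HFD *Pax4* R192H and 8.12 to 9.02 in all other knock-in libraries. It therefore nearly coincides with that group, and the model cannot separate acinar content from the group. The part of acinar RNA in these results was not tested further.

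In wildtype islets, 4 weeks of HFD together with 4 weeks of age went with lower means of 7 of 9 members (48.9% of all genes), but none was called, beside 0.371% of all genes, or 71 genes. That number was between 5 (without HFD wildtype mouse 3) and 125 (without HFD wildtype mouse 1) when 1 mouse was left out. *Fosb* (-0.73 ± 0.31) and *Fos* (-0.62 ± 0.26) each had an adjusted p of 0.283 and were the 2 members with an unadjusted p under 0.05, which 15.2% of all genes had. DESeq2 called no member. *Fos* was the member whose HFD mice were all below the SCD mice, as were those of 9.46% of all genes, with 8.47% the other way. *Npas4* (0.12 ± 0.57) and *Nr4a2* (0.15 ± 0.31) were the members with a higher mean on HFD. Markers of non-endocrine cells moved with this comparison: 11 of 12 macrophage markers were below 0 with 1 called, at a sum of 75.2 to 83.1 CPM on HFD and 103 to 149 CPM on SCD. Of the stromal markers 11 of 12 were below 0 with none called (median -1.38, 7 with an unadjusted p under 0.05), as were 5 of 5 tested T and B cell markers. The summed beta cell markers were at 45090 to 59369 CPM on SCD and 65469 to 93847 CPM on HFD, and mitochondrial genes took 0.720% to 1.32% of counts on SCD and 0.497% to 0.683% on HFD. The part of these in the result was not tested.

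This comparison, too, depended on the first HFD wildtype mouse. When it was left out, 2 members were called lower on HFD: *Fosb* at -1.28 ± 0.23 (adjusted p = 0.0383) and *Junb* at -0.81 ± 0.16 (adjusted p = 0.0477). *Nr4a1* then had -1.33 ± 0.28 (adjusted p = 0.0561), and *Npas4* turned to -1.01 ± 0.49.

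In *Pax4* R192H islets, HFD and age went with lower *Fosb* and *Npas4*, the only members called in any of the 6 tests, and 15.7% of all genes, or 2996 genes, were called in this comparison. With 1 mouse left out, between 1706 (without HFD *Pax4* R192H mouse 2) and 2248 genes were called, of which 537 to 728 were lower. *Fosb* fell from 134 ± 21.4 CPM on SCD to 65.6 ± 12.5 CPM on HFD (SD, n = 3 each), a log2 fold change of -1.03 ± 0.31 with an adjusted p of 0.0360. *Npas4* fell from 4.10 ± 1.59 to 1.10 ± 0.349 CPM, a log2 fold change of -1.89 ± 0.61 with an adjusted p of 0.0498. Both adjusted p-values were just under the threshold. Beside these 2 of 9 members called lower, 5.91% of all genes were called lower and 9.75% higher. Means were lower on HFD for 8 of 9 members and 53.6% of all genes.

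*Nr4a2* was higher in the mean on HFD, 4.07 ± 0.692 against 2.25 ± 0.485 CPM, with an estimate of 0.86 ± 0.32 and an adjusted p of 0.0786. Its 3 HFD mice were all above the SCD mice, as were those of 21.3% of all genes. *Fosb*, *Npas4*, *Nr4a1* (-0.89 ± 0.37, adjusted p = 0.116) and *Egr1* (-1.06 ± 0.55, adjusted p = 0.204) had all HFD mice below the SCD mice, beside 20.6% of all genes. The remaining members, *Fos*, *Jun*, *Junb* and *Ier2*, had log2 fold changes between -0.28 and -0.19, with groups that overlapped.

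DESeq2 called both as well (*Fosb*, adjusted p = 0.00295, and *Npas4*, adjusted p = 0.00575), but in edgeR neither call held throughout. When each of the 6 mice was left out in turn, *Fosb* lay between -1.16 and -0.88 and was called only without SCD *Pax4* R192H mouse 3 (adjusted p = 0.0482), and *Npas4* lay between -2.14 and -1.55 and was called in no case (adjusted p between 0.0617 and 0.163). All 20 acinar markers were called higher on HFD here, their sum being 14443 to 20442 CPM on SCD and 39118 to 104225 CPM on HFD. With the acinar level as a covariate, the number of all genes called was 63 in place of 2996, and neither member was called: *Fosb* had -1.10 ± 0.59 (adjusted p = 0.410) and *Npas4* -0.57 ± 1.03 (adjusted p = 0.830). In that model *Nr4a1* had -1.53 ± 0.66 (adjusted p = 0.316) and *Nr4a2* -0.05 ± 0.47. As this covariate nearly coincides with the HFD *Pax4* R192H group, the model cannot separate acinar content from diet and age in these mice. Other values of these libraries also separated the diets. The summed beta cell markers were at 50619 to 52741 CPM on SCD and 99293 to 110484 CPM on HFD, with 3 of 10 called higher and 2 lower. The 2 largest genes took 37.6% to 46.3% of counts on SCD and 49.2% to 53.3% on HFD, and mitochondrial genes 0.784% to 0.991% on SCD and 0.337% to 0.463% on HFD. Leaving out the 2 largest genes changed neither call. In each of 4 other marker lists 1 marker was called higher and none lower: alpha (of 6), duct (of 9 tested), endothelial (of 12) and T and B cells (of 5 tested). The 12 stromal markers had a median of -0.65 with none called. The part of these cell types, of beta cell content and of mitochondrial RNA was not tested.

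**Figure D2:**
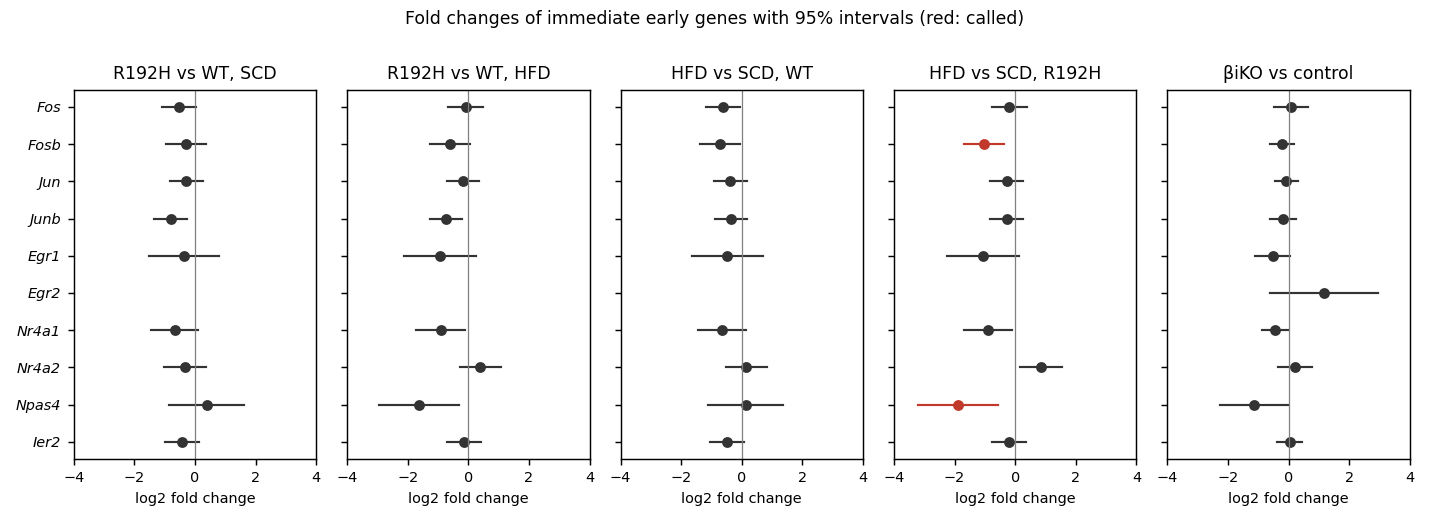
Log2 fold changes of the members in the 5 pairwise comparisons, as points with 95% intervals from edgeR's quasi-likelihood model (knock-in model of 12 mice, knockout model of 5 mice). Called members are red: *Fosb* (-1.03) and *Npas4* (-1.89) with HFD in *Pax4* R192H islets. *Egr2* was tested in the knockout table alone, where its interval was the widest.

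Whether the genotypes responded to diet differently was tested as an interaction. No member was called, beside 0.131% of all genes, or 25 genes, a number that was between 0 (without HFD *Pax4* R192H mouse 2) and 101 (without HFD wildtype mouse 2) when 1 mouse was left out. *Npas4* had the largest estimate, -2.01 ± 0.84 with an adjusted p of 0.387, and was the 1 member with an unadjusted p under 0.05, which 11.2% of all genes had. DESeq2 called no member here. The estimate of *Npas4* was -0.87 ± 0.64 without the first HFD wildtype mouse and -0.86 ± 1.11 with the acinar level as a covariate, and all 20 acinar markers had interaction estimates above 0, 18 of them with an unadjusted p under 0.05 and none called. The 12 stromal markers (median 0.84), the 12 macrophage markers (median 0.61) and the 5 tested T and B cell markers (median 7.38) were also all above 0 with none called, and their part was not tested. For *Fosb*, called with diet in *Pax4* R192H islets and not in wildtype islets, the interaction was -0.30 ± 0.43 with a 95% interval from -1.24 to 0.63, so a difference between the genotypes in its response was not shown. *Nr4a2* had 0.72 ± 0.45, and the other members lay between -0.59 and 0.44. Estimates were below 0 for 4 of 9 members and 50.8% of all genes.

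In the knockout table, where all 5 mice were on HFD for 8 weeks, the members' levels were tested between *Pax4* βiKO and control islets. *Fos* measured 623 and 355 CPM in controls and 442, 628 and 474 CPM in βiKO mice. *Fosb* measured 363 and 248 CPM against 268, 296 and 228 CPM, and *Junb* 157 and 103 CPM against 96.7, 130 and 116 CPM. For these AP-1 genes the βiKO mice lay mostly between the controls. The same held for *Jun*, with 275 and 184 CPM in controls and 200, 240 and 216 CPM in βiKO mice.

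*Egr1* measured 106 and 68.8 CPM in controls and 63.5, 76.9 and 43.4 CPM in βiKO mice. *Nr4a1* measured 40.1 and 25.4 CPM against 22.4, 25.5 and 23.9 CPM, and *Npas4* 16.7 and 4.48 CPM against 4.09, 6.47 and 3.80 CPM. In each of these the first control was the highest of the 5 mice and the second control was within the range of the βiKO mice or next to it. *Nr4a2* measured 4.46 and 4.71 CPM in controls and 6.21, 5.84 and 3.92 CPM in βiKO mice. *Ier2* measured 25.9 and 19.8 CPM against 18.6, 24.6 and 26.7 CPM. *Egr2* measured 0.409 and 0.133 CPM against 0.312, 0.393 and 1.10 CPM, from 4 to 36 reads.

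None of the 10 members was called between βiKO and control islets, beside 0.0893% of 20167 tested genes, and no member had groups without overlap, beside 16.7% of all genes with all βiKO mice lower and 15.9% with all higher. The number of genes behind this share, 18, was between 2 (without the first control) and 28 (without βiKO mouse 3) when 1 mouse was left out. DESeq2 called no member either. An unadjusted p under 0.05 was reached by *Nr4a1* (-0.45 ± 0.18, adjusted p = 0.361) and *Npas4* (-1.14 ± 0.49, adjusted p = 0.388), and by 12.8% of all genes. Log2 fold changes were below 0 for 6 of 10 members and 48.5% of all genes. The intervals ran from -0.61 to 0.19 for *Fosb*, from -0.45 to 0.31 for *Jun* and from -0.49 to 0.64 for *Fos*. The interval of *Egr2* was wide, from -0.62 to 2.95. All 20 acinar markers had log2 fold changes below 0 here, with none called, their sum being 17919 to 88889 CPM in βiKO and 26167 to 112903 CPM in control libraries. With the acinar level as a covariate no member was called either, and *Nr4a1* had -0.36 (adjusted p = 0.621) and *Npas4* -0.75 (adjusted p = 0.738). The 12 endothelial markers were all above 0 with none called, at a sum of 384 to 453 CPM in βiKO and 362 to 366 CPM in control libraries, as were 13 of 14 heat shock and dissociation genes, at 4126 to 5256 CPM against 3422 to 3674 CPM. The 6 tested T and B cell markers were all above 0 too, with a median of 2.77 and none called. All 10 listed ones summed to 1.14 to 47.7 CPM in βiKO and 2.42 to 4.09 CPM in control libraries. Of the 10 beta cell markers 6 had lower and 1 a higher level at an unadjusted p under 0.05, with none called. The part of these in the result was not tested. Without the first control, *Nr4a1* was at -0.08 and *Npas4* at 0.10.

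**Figure D3:**
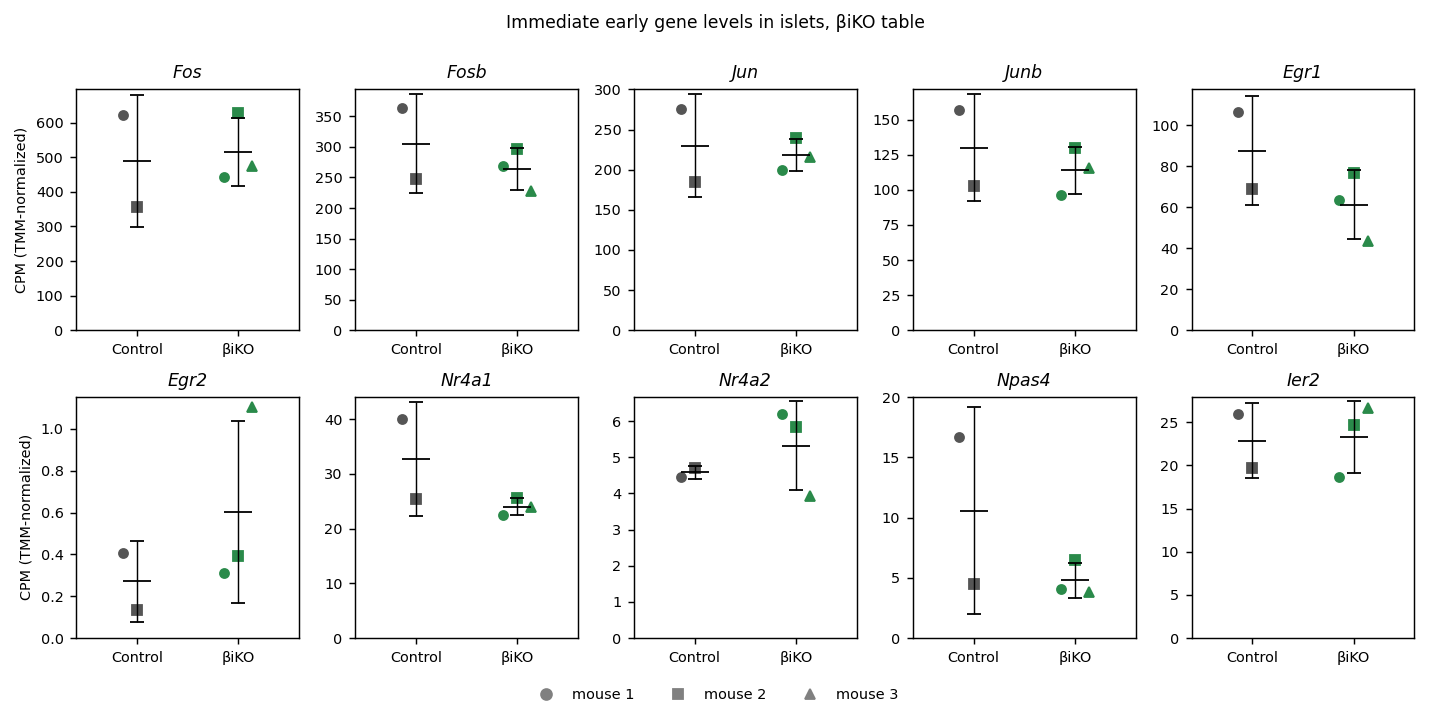
CPM (TMM-normalized, linear axes from 0) of the 10 members in 2 control and 3 *Pax4* βiKO mice, with points for mice, a line for the mean and bars for ± 1 SD. The first control (circle) was above the second for every member but *Nr4a2*, and the βiKO mice overlapped with the controls for all 10.

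On HFD, most members were high or low together in a mouse. Each of the 6 SCD mice had 4 or 5 of the 9 tested members above its group mean, whereas the HFD wildtype mice had 9, 2 and 0 and the HFD *Pax4* R192H mice 7, 1 and 7. Whether the diets differ in this was not tested. Deviations from the group mean on the log2 CPM scale, averaged over the 9 tested members, ranged over the 12 knock-in mice from -0.53 to 0.82. The first HFD wildtype mouse was above its group mean for 9 of 9 members and the highest of its group for 8, with deviations from 0.14 for *Nr4a2* to 1.53 for *Npas4*. HFD wildtype mouse 3 was the lowest of its group for 7 members, and the second HFD *Pax4* R192H mouse for 8. In the knockout table the first control was the higher of the 2 controls for 9 of 10 members, by a mean deviation of 0.36 from the mean of both.

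**Figure D4:**
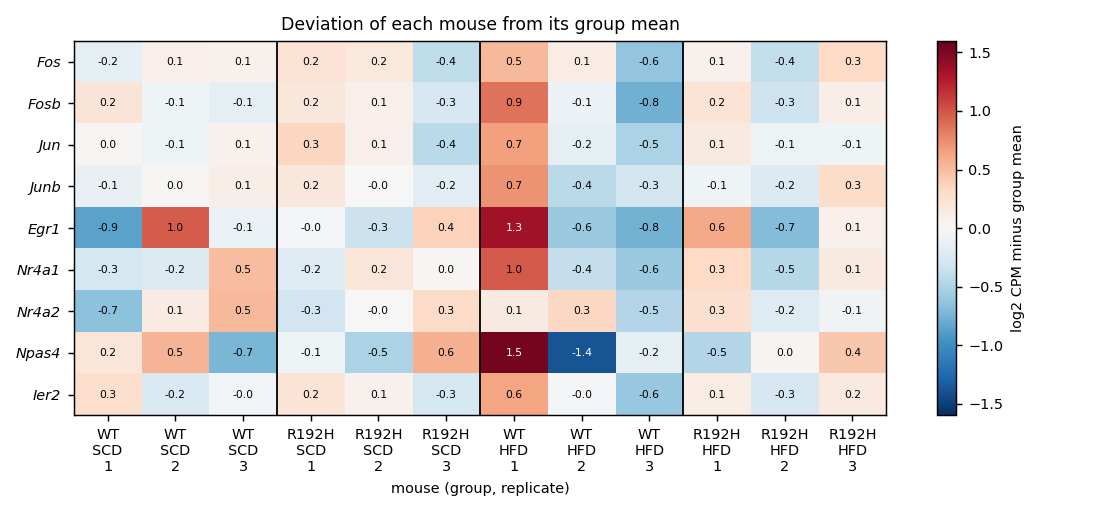
Deviation of each knock-in mouse from its group mean in log2 CPM for the 9 tested members, from blue (below) to red (above), with vertical lines between the groups. The first HFD wildtype column is red throughout, from 0.1 to 1.5, and the last HFD wildtype column is blue throughout.

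Across the 12 mice, the deviation of *Junb* followed the mean deviation of the other members most closely (r = 0.89, rho = 0.80), and it did so without HFD wildtype mice 1 and 3 too (r = 0.75 over 10 mice). *Fosb* (r = 0.84) and *Nr4a1* (r = 0.83) came next but rested more on those 2 mice, with 0.36 and 0.50 without them. For *Egr1*, *Fos*, *Jun* and *Ier2*, with r from 0.73 to 0.77 over 12 mice, the values without them were 0.55, 0.42, 0.19 and 0.10. *Npas4* (r = 0.45) and *Nr4a2* (r = 0.25) followed the others least, and were at -0.03 and -0.04 without them. The deviations share the libraries and their scaling, so these values are descriptions.

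Among 13632 other genes with a mean of at least 1 CPM, *Scrt1*, a zinc finger repressor, was the most like the members' mean deviation, with r = 0.95 (rho = 0.89) over 12 mice and 0.89 over 10 mice. *Socs3*, an inhibitor of cytokine signalling that is itself induced by it, had r = 0.94 and 0.85. Then came *Sh3d19*, *Klb*, which encodes the FGF co-receptor β-klotho, *Hjurp*, *Unc13a*, which primes secretory vesicles, *Sprtn*, the adhesion molecule gene *Alcam*, the kinase gene *Uhmk1* and *Fan1*, down to r = 0.92. They were picked as the highest of many: 302 genes had r of at least 0.8, and the median over all genes was -0.08. Among the marker lists, the 6 alpha cell markers had the highest median, 0.53, with all 6 above 0, and the 10 beta cell markers the lowest, -0.38. HFD wildtype mouse 1, with the highest mean deviation of the members (0.82), had a summed alpha marker level of 7747 CPM against 4893 and 4773 CPM in the other HFD wildtype mice. Its summed beta marker level was 65469 CPM against 91567 and 93847 CPM. The part of these cell types in the pattern was not tested. The heat shock and dissociation list had a median of -0.25 over 14 genes, and the 20 acinar markers of 0.09. For 21 other immediate early transcription factor genes the median was 0.46. For 32 immediate early genes that encode no transcription factor it was 0.04, so the pattern did not extend to these as a set. For 28 genes of the SRF, CREB and MAP kinase pathways it was 0.34.

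Ratios between members within a mouse do not depend on library scaling, and a gene's length cancels when a ratio is compared between mice. The ratio of *Fos* to *Fosb* was 1.94, 2.77 and 2.90 in SCD wildtype, 2.17, 2.22 and 1.91 in SCD *Pax4* R192H, 2.23, 3.28 and 3.12 in HFD wildtype and 3.40, 3.60 and 4.38 in HFD *Pax4* R192H mice. The last group was above all other mice of the table. Its log2 difference was 0.85 from SCD *Pax4* R192H and 0.41 from HFD wildtype mice, each with p = 0.1 in a two-sided exact permutation test of 3 against 3 mice, the smallest p that such a test can give, and 0.444 after adjustment over the 20 ratio tests made.

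The ratio of *Junb* to *Jun* was 0.609, 0.710 and 0.678 in SCD wildtype and 0.420, 0.442 and 0.566 in SCD *Pax4* R192H mice. These groups did not overlap, with a log2 difference of -0.49 (exact permutation p = 0.1, 0.444 adjusted). On HFD it was 0.704, 0.554 and 0.778 in wildtype and 0.393, 0.415 and 0.583 in *Pax4* R192H mice, with a log2 difference of -0.56 and 1 pair of mice that overlapped (exact permutation p = 0.2, 0.444 adjusted). The first HFD wildtype mouse, high for both genes, was not extreme in this ratio. In the knockout table the ratio was 0.570 and 0.558 in controls and 0.483, 0.542 and 0.534 in βiKO mice, a log2 difference of -0.12 (exact permutation p = 0.2, 0.444 adjusted).

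**Figure D5:**
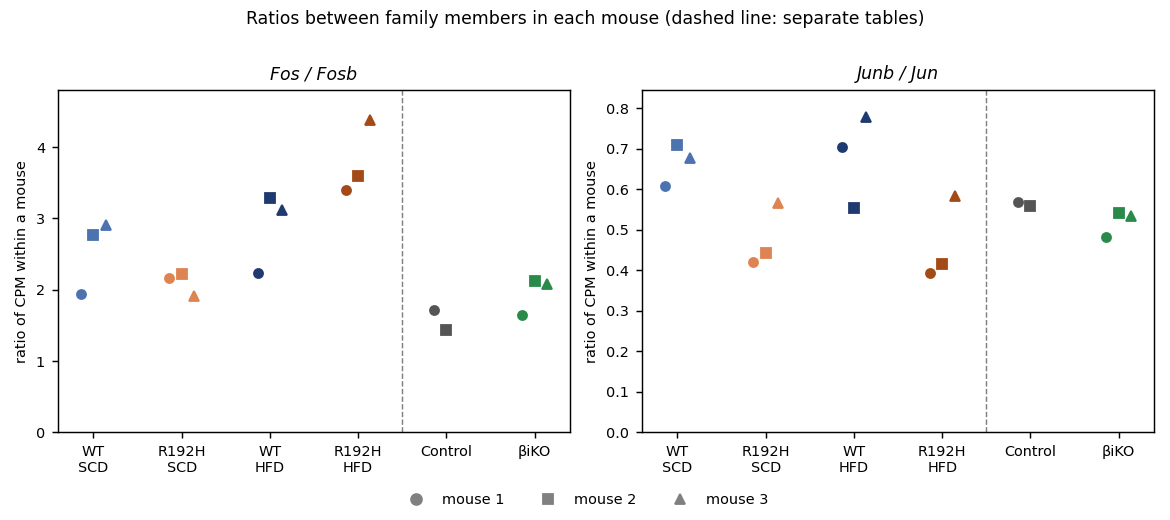
Ratio of CPM within each mouse for *Fos* over *Fosb* (left) and *Junb* over *Jun* (right), linear axes from 0, 1 point per mouse, with a dashed line between the separately normalized tables. *Fos* over *Fosb* was highest in the 3 HFD *Pax4* R192H mice (3.40 to 4.38), and *Junb* over *Jun* was lower in the SCD *Pax4* R192H mice (0.420 to 0.566) than in the SCD wildtype mice (0.609 to 0.710).

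Of 23 other immediate early transcription factor genes, 21 were tested in each table. None was called by genotype on either diet, by diet in wildtype islets, by the interaction or in βiKO islets. With HFD in *Pax4* R192H islets 2 rose and 2 fell, 4 of 21 beside 15.7% of all genes called, which is near that background. *Cebpb* (0.88 ± 0.23, adjusted p = 0.0187) and *Jund* (0.69 ± 0.19, adjusted p = 0.0240), the JUN protein that is the least dependent on stimulation, rose. *Cebpd* (-1.86 ± 0.44, adjusted p = 0.0112) and the circadian repressor gene *Bhlhe40* (-1.10 ± 0.32, adjusted p = 0.0329) fell. Wildtype means moved the same way without a call. From SCD to HFD, *Cebpb* went from 6.10 to 8.13 CPM and *Jund* from 75.6 to 79.0 CPM. *Cebpd* went from 12.5 to 4.76 CPM and *Bhlhe40* from 7.90 to 4.96 CPM. On SCD 19 of the 21 had log2 fold changes below 0 in *Pax4* R192H islets, with a median of -0.40, like the members' -0.35.

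The 32 immediate early genes that encode no transcription factor were tested in both tables. They had 1 call in each direction, again with HFD in *Pax4* R192H islets, so 2 of 32 were called beside 15.7% of all genes: *Dusp6*, a phosphatase of ERK, rose (0.87 ± 0.17, adjusted p = 0.00457) and the coactivator gene *Cited2* fell (-0.74 ± 0.24, adjusted p = 0.0479). Medians of this list were -0.34 with genotype on SCD, -0.13 with genotype on HFD, -0.38 with diet in wildtype islets, -0.17 with diet in *Pax4* R192H islets and 0.14 in βiKO islets.

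Among 28 genes of the SRF, CREB and MAP kinase pathways upstream, none rose and 3 fell with HFD in *Pax4* R192H islets, beside 9.75% of all genes called higher and 5.91% called lower. These were *Creb1*, which encodes CREB (-0.72 ± 0.13, adjusted p = 0.00275), *Rps6ka5*, whose kinase MSK1 phosphorylates CREB (-1.66 ± 0.23, adjusted p = 0.00061), and *Mapk8*, which encodes the JUN kinase JNK1 (-0.50 ± 0.12, adjusted p = 0.0110). *Creb1* was at 53.1 ± 5.04 CPM on SCD and 32.2 ± 1.09 CPM on HFD (SD, n = 3 each). Of 14 heat shock and dissociation stress genes, *Dnaja1* (-0.65 ± 0.16, adjusted p = 0.0157) and *Hspa1a* (-1.42 ± 0.44, adjusted p = 0.0400) fell in the same comparison, beside the same shares, and none rose. Neither list had a call in the other comparisons. Wildtype means of these genes were also lower on HFD than on SCD. For *Creb1* they were 42.5 against 56.1 CPM, for *Rps6ka5* 4.41 against 6.60 CPM and for *Mapk8* 14.7 against 22.0 CPM. *Dnaja1* had 114 against 142 CPM and *Hspa1a* 119 against 203 CPM, so these falls were not particular to *Pax4* R192H islets. These lists were written with earlier results of the data known, and the acinar shift described above applies to the same libraries.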

How the data were processed

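Both tables hold expected counts for each gene as the authors deposited them, aligned with STAR (v2.7.1) to mm10 and estimated with RSEM (v1.3.3) and tximport, without scaling for depth. The annotation release is not given in the sources used here. Symbols and exon lengths came from GENCODE M21, which matched 65.8% and 66.7% of the identifiers of the knock-in and the knockout table. Libraries were stranded total RNA. Rounded counts were tested in R (v4.3.3) with edgeR (v4.0.16), using TMM factors, filterByExpr (minimum count 10) and quasi-likelihood F-tests of 1 model per table with a coefficient per group. Benjamini-Hochberg adjustment covered every tested gene. A call required an adjusted p-value under 0.05 with an absolute log2 fold change over 0.5. A prior count of 2 was added for log2 CPM, whereas the CPM printed per mouse had none. Groups came from the sample labels, which call the replicates biological, and no mouse was left out.

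All 10 members were named in each comparison, with the called genes of 4 related lists (at most 6 per list) and the 10 genes whose deviations were most like those of the members. The members and lists were chosen with earlier results of these data known. Ratios were tested by exact permutation. Motifs were searched in the RefSeq promoter windows. The alternatives tried were RLE factors, dropping the filter or requiring at least 10 counts in all samples, DESeq2 (v1.42.0), the replicate number as a block, the acinar marker level as a covariate, omission of the 2 largest genes, models of the 2 groups compared alone and omission of each mouse in turn. Total counts were 24268157 to 42679645 per knock-in mouse and 28618835 to 31887537 per knockout mouse. Floors of 3 counts cover counting error only, since reads are not independent molecules. The test was also checked on simulated counts. Other experiments of the study were not analysed here.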

Additional observations from a re-analysis of the deposited data

How the results depend on the processing

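RLE size factors, at least 10 counts in every sample and leaving out the 2 largest genes changed no direction or call of a member that they tested; at least 10 counts in every sample left *Egr2* untested in the knockout table. Without the filter, members called were 1 by genotype on SCD (*Junb*), 5 on HFD (*Fosb*, *Nr4a1*, *Egr1*, *Npas4*, *Junb*), 1 by interaction (*Npas4*), 2 by diet in wildtype (*Fosb*, *Fos*), 4 by diet in *Pax4* R192H (*Fosb*, *Nr4a1*, *Egr1*, *Npas4*) and 2 in βiKO islets (*Egr1*, *Npas4*), and the cause was not tested. DESeq2 called 1 by genotype on HFD. By diet in *Pax4* R192H islets 5 were called with only the 2 groups compared in the model, and 0 with the acinar covariate. In the knock-in table that covariate nearly coincides with the HFD *Pax4* R192H group and cannot be separated from it. With that covariate *Nr4a2* turned to -0.33 by genotype on HFD, -0.11 by interaction and -0.054 by diet in *Pax4* R192H, and *Ier2* to -0.0032 in βiKO islets.

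The replicate numbers did not pair the mice: correlations of same-numbered deviations were between -0.30 and 0.19. With the replicate block 1 member (*Fosb*, -1.02) was called by diet in *Pax4* R192H, where *Npas4* had -1.85 (adjusted p = 0.0797). *Npas4* turned to -0.093 by diet in wildtype and *Ier2* to -0.076 in βiKO islets. Over all genes the block gave 147 against 437 calls by genotype on HFD, 0 against 25 by interaction, 22 against 71 by diet in wildtype and 88 against 18 in βiKO islets.

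Leaving out each mouse gave 0 to 2 members called by diet in wildtype, 0 to 1 by diet in *Pax4* R192H and 0 to 0 elsewhere. Signs turned for *Egr1* by genotype on SCD (-0.68 to 0.28); for *Fos* (-0.35 to 0.20), *Jun* (-0.40 to 0.22), *Egr1* (-1.29 to 0.078) and *Ier2* (-0.40 to 0.24) by genotype on HFD; for *Fosb* (-0.61 to 0.25), *Jun* (-0.12 to 0.51), *Junb* (-0.14 to 0.53), *Egr1* (-1.22 to 0.43) and *Nr4a1* (-0.53 to 0.44) by interaction; for *Egr1* (-1.49 to 0.16), *Nr4a2* (-0.12 to 0.46) and *Npas4* (-1.01 to 0.57) by diet in wildtype; and for *Fos* (-0.28 to 0.54), *Fosb* (-0.46 to 0.092), *Jun* (-0.33 to 0.25), *Junb* (-0.46 to 0.15), *Ier2* (-0.15 to 0.24) and *Npas4* (-1.79 to 0.10) in βiKO islets. Depth limits *Egr2*, with at most 36 reads per mouse.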
